A study of Mus musculus with 24 samples.

Results

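The Cyp2c gene cluster of mouse liver was examined through H3K27ac, the acetylation of lysine 27 of histone H3 that marks active promoters and enhancers. The members were 10 protein-coding genes, Cyp2c29, Cyp2c37, Cyp2c38, Cyp2c39, Cyp2c40, Cyp2c50, Cyp2c54, Cyp2c55, Cyp2c69 and Cyp2c70, of 22208 protein-coding genes of the autosomes and X. Each was chosen by name, and its window was the gene body with 10 kb on each side in mouse build mm9 (NCBIM37). All members lie in a stretch of 1200 kb of chromosome 19, and their windows add up to 656 kb, since those of Cyp2c54 and Cyp2c50 overlap. Livers came from mice of 8 weeks of age that belonged to the inbred strain C57BL/6J, here B6, or to CAST/EiJ, here CAST, which derive from separate mouse subspecies, and the labels name no treatment or engineered allele. The 20 livers formed 4 groups of 5, namely B6 males, B6 females, CAST males and CAST females, and each group had 1 input library of DNA that had not been immunoprecipitated. The study asked which sex differences in liver regulatory elements the strains share and which differ between them. Groups follow the sample titles, because a strain field in the labels gives CAST for all females and B6 for all males, against the titles of the B6 females and the CAST males. The B6 male list held 39 calls on the Y chromosome and the B6 female list 0, but both CAST lists held 0 on the Y and 0 on the mitochondrial chromosome, so Y calls give no check of sex in CAST.

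The Cyp2c genes encode cytochrome P450 enzymes, haem proteins of the endoplasmic reticulum that take electrons from NADPH-cytochrome P450 reductase and insert an oxygen atom into drugs, steroids, retinoids and fatty acids. In the mouse the subfamily expanded by tandem duplication, so that its genes resemble each other closely in sequence. Several are known to be expressed at different levels in male and female liver, where the sex-dependent pattern of growth hormone secretion acts through the transcription factor STAT5b and the repressors CUX2 and BCL6.

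The data are 4 peak lists, 1 for each group, called on the pooled reads of its 5 livers. No value below therefore has a spread between replicates, no difference was tested, and the lists carry no read depth. The lists held 79862 (B6 males), 82181 (B6 females), 90228 (CAST males) and 84645 (CAST females) peaks. A peak of a list is termed a call, and its fold enrichment over background is the value of the peak caller at the peak's summit. Its percentile is its rank by score within its own list, with 100 the strongest. Of 7 hepatocyte markers, 6 had a call within 1 kb of a start in every list, all but Serpina1a. Of these 6, Tat (percentiles 50.8 and 62.4 in B6 males and females) and Cyp2e1 (47.5 and 67.5) ranked higher in B6 females and the other 4 lower, while in CAST 3 ranked higher in females and 3 lower. Of other cell types, sinusoidal endothelial markers had one at 3 of 4 in every list, all 3 lower in B6 females than in B6 males (Stab2 17.4 against 26.99, Pecam1 11.6 against 24.01, Kdr 37.3 against 43.8) and 2 of the 3 lower in CAST females. Cholangiocyte markers had one at 2 of 4 in every list, with Sox9 at percentiles 77.2 to 85.4 and Krt19 and Krt7 without a call. Epcam, the other cholangiocyte marker called, stood at percentile 6.24 in males and 34.4 in females of B6, and at 66.2 in males and 43.6 in females of CAST. The stellate cell marker Reln stood at percentiles 79.7 to 91.1, and Lrat, another, was called in CAST females alone, at 15.8. None of 3 T and B cell markers had a call in any list, and of 4 markers of other organs the neuronal Syn1 had one in 3 lists, at percentiles from 13.1 to 28. The Kupffer cell marker Clec4f was called in B6 females alone, at percentile 13.7, and the other 3 Kupffer and macrophage markers were called in no list, and the part of such cells in the results was not tested. In whole liver, fewer cells that carry the mark and less of the mark per cell cannot be told apart.

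The members' similarity limits what short reads can show, because the authors kept uniquely mapped reads. Of 50-base stretches starting in the member windows, 72.9% occurred once in mm9, against 88.6% of positions spaced evenly over the genome. The share ran from 55.5% in the Cyp2c40 window and 60.7% in the Cyp2c69 window to 88.5% in the Cyp2c55 window. Under the calls it was 98.3% to 99.2% in the 4 lists, and 72.0% to 72.1% of the uncalled bases. At 200 bases, a length nearer that of a sequenced fragment, 94.1% of the member windows were unique. These shares refer to mm9, and the uniqueness of the CAST genome was not analysed here. A missing call in sequence without unique stretches says little about the mark there. Within a strain both sexes were aligned to the same genome, but how read depth or fragment length acts together with low uniqueness was not tested.

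Sequence is shown first for the 4 members whose start had a call in females and none in males of at least 1 strain, Cyp2c40, Cyp2c69, Cyp2c38 and Cyp2c54. Each is the 250 bases before the annotated start, read from mm9 along the gene, 5′ to 3′. Cyp2c40 has a second annotated start, at 39887234, and the promoter shown is that of the start at 39887304. Capitals mark letters of the motifs searched, which are described with their frequencies further on. The Cyp2c40 promoter lies at chr19:39887305-39887554, the Cyp2c69 promoter at chr19:39961260-39961509, the Cyp2c38 promoter at chr19:39537566-39537815 and the Cyp2c54 promoter at chr19:40148302-40148551, all on the minus strand.
Cyp2c40: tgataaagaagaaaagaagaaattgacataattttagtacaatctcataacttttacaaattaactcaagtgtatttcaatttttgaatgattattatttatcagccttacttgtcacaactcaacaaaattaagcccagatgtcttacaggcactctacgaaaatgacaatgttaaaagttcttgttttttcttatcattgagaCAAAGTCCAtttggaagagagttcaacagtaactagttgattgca
Cyp2c69: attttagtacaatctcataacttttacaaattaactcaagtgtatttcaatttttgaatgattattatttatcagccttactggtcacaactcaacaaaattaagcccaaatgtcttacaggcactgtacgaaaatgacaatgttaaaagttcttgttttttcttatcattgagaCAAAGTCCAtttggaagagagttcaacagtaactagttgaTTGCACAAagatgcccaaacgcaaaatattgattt
Cyp2c38: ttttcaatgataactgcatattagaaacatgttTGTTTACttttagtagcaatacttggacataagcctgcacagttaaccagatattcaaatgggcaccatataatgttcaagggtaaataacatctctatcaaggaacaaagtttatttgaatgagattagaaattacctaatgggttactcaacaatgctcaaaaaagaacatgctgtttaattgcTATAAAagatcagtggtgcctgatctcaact
Cyp2c54: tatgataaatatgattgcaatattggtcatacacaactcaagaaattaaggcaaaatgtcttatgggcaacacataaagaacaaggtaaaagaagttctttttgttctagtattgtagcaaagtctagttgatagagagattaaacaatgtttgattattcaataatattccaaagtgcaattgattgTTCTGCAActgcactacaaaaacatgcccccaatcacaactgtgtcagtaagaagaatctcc

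The Cyp2c40 and Cyp2c69 promoters matched at 217 of 220 aligned positions (98.6%), the highest of the 45 pairs of member promoters, whose median identity was 61.0%. Cyp2c37, Cyp2c50 and Cyp2c54 formed a second group with 85.9% to 88.3% identity, and Cyp2c38 and Cyp2c39 shared 83.7%. The calls of Cyp2c40 and Cyp2c69 did not lie on these promoters but in an intron just downstream, in a stretch that partly repeats itself. The middle 300 bases of both intronic regions are printed next, on the minus strand, from chr19:39886285-39886584 for Cyp2c40 and chr19:39960316-39960615 for Cyp2c69, because the reading of these calls turns on them. Capitals here mark bases at which the 50-base stretch that starts there, and runs to the left as printed, occurs more than once in mm9.
Cyp2c40 intron: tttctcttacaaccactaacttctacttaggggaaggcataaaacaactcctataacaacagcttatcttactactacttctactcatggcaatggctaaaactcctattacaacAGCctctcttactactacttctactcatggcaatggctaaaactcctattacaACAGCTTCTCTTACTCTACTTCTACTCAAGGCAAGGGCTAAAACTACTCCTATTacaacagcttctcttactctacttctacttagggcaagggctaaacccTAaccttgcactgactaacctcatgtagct
Cyp2c69 intron: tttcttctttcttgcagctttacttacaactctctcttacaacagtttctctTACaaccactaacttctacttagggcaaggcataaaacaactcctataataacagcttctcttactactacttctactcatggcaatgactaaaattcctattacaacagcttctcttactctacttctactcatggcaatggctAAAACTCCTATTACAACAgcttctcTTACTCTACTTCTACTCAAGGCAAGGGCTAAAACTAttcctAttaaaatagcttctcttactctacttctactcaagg

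The stretches matched each other at 246 of 261 aligned positions (94.3%). Within itself, each resembled a copy shifted by 55 bases in Cyp2c40 (51.0% of bases equal) and by 54 bases in Cyp2c69 (50.4%), where the best shift of the other 35 regions of the cluster gave 30.9% to 57.3%, with a median of 33.8%. Of the 300 start positions, 59 in Cyp2c40 and 58 in Cyp2c69 were not unique at 50 bases, and the most frequent stretch occurred 4 times. At 200 bases all positions of both were unique.

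At the gene starts, members ranked higher in the female lists almost throughout. The highest-ranking call within 1 kb of a start stood at a higher percentile in females than in males for 10 of 10 members in B6 and for 9 of 10 in CAST, where a missing call counted as the lowest rank. Among all protein-coding genes with a start call in either sex, the same order was found for 52.7% in B6 and for 36.3% in CAST. The members' start calls ranked up to percentile 83.9 in B6 and 90.2 in CAST, so genes whose calls ranked no higher than the highest member were taken as a second background, and of these 53.0% in B6 and 30.7% in CAST ranked higher in females. A percentile at least 10 points higher in females was found at 6 member starts in B6 and 7 in CAST, and at least 10 points higher in males at 0 in either strain. Over all genes, 6.03% in B6 and 3.53% in CAST were at least 10 points higher in females, and 5.04% and 9.19% at least 10 points higher in males. Among genes ranking no higher than the highest member, the female share was 22.6% in B6 and 9.15% in CAST. Members called at the start in females and not in males numbered 2 in B6, Cyp2c40 and Cyp2c69, and 4 in CAST, beside 2.41% and 1.70% of all genes. For this count the share among genes ranking no higher than the highest member was not computed, so the shares given include genes of much higher rank. With a narrower window of 500 bp, which leaves out the calls further downstream at Cyp2c40 and Cyp2c69 in both strains and at Cyp2c54 in CAST, and the one further upstream at Cyp2c50, 7 members in B6 and 5 in CAST ranked higher in females.

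**Figure D1:**
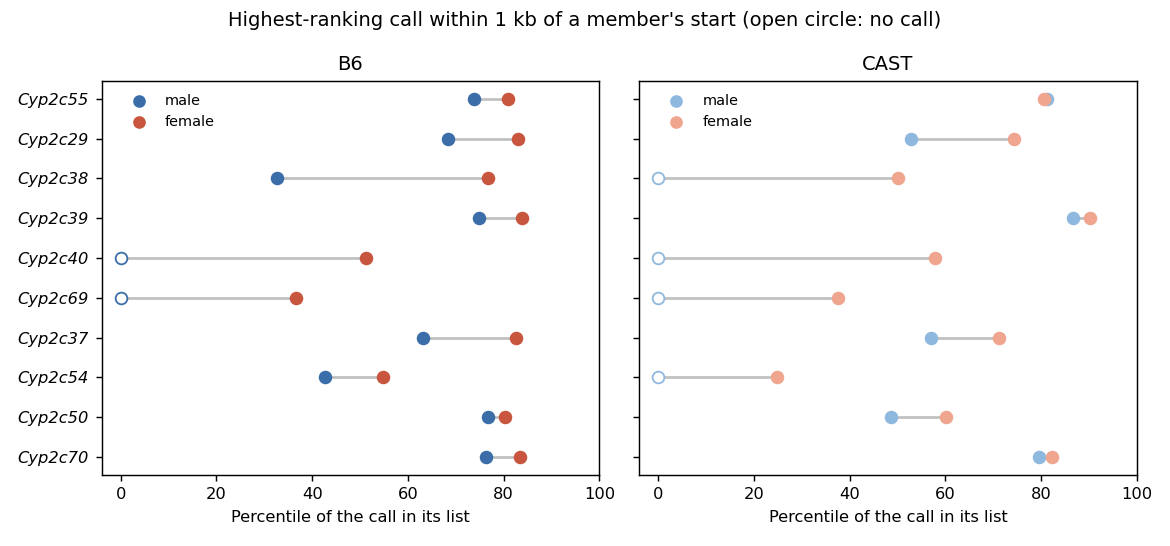
Percentile within its list of the highest-ranking H3K27ac call within 1 kb of a start of each Cyp2c member, in B6 (left) and CAST (right), with males in blue and females in red and open circles at 0 for no call. Every B6 line runs to a higher female value, from 3.56 points at Cyp2c50 to 44.0 points at Cyp2c38 among members called in both sexes, and in CAST only Cyp2c55 does not.

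Cyp2c40, an arachidonic acid hydroxylase, and its neighbour Cyp2c69 were called in females and in no male list. Cyp2c40 (ENSMUSG00000025004.8, chr19:39841561-39887304, minus strand) had 0 bases under a call in males and 235 in females of B6, and 0 in males and 313 in females of CAST. That call reached a fold enrichment of 3.05 (percentile 51.3) in B6 females and 3.42 (percentile 57.9) in CAST females. Its summit lay 859 and 843 bp downstream of the start at 39887304, and 789 and 773 bp downstream of the second annotated start. Cyp2c69 (ENSMUSG00000092008.1, chr19:39917150-39961259, minus strand) had 0, 360, 0 and 219 covered bases in the same order. Its fold enrichment was 2.59 (percentile 36.6) in B6 females and 2.69 (percentile 37.5) in CAST females. These were single calls of moderate rank, each the whole of the gene's signal within its window. Around the starts, 61.9% of 50-base stretches within 1 kb were unique for Cyp2c40 and 63.8% for Cyp2c69, and the calls lie on the repeated intronic stretch printed above. Neither gene reached a mean of 500 covered bases over the 4 lists, the minimum set for ratios, so no ratio of covered bases is given for them.

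Cyp2c38, an arachidonic acid epoxygenase (ENSMUSG00000032808.2, chr19:39464046-39537565, minus strand), had a single call over its start and the bases after it. The call covered 577 bases in males and 827 in females of B6, and 0 in males and 783 in females of CAST. Fold enrichment was 2.53 in B6 males, 4.77 in B6 females and 3.09 in CAST females, at percentiles 32.7, 76.7 and 50.2. The B6 difference of 44.0 points was larger than that of 99.9% of genes with a start call in both sexes. In CAST the gene's ratio of covered bases, female over male after adding 500 bp to each, was 1.36 on the log2 scale, higher than that of 99.9% of genes. That ratio rests on a single call, and the share was not computed among genes of similarly low coverage. Its start is well resolved, with 99.3% of 50-base stretches within 1 kb unique.

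Cyp2c54, an enzyme of fatty acid epoxidation (ENSMUSG00000067225.1, chr19:40112431-40148301, minus strand), had 756 covered bases in males and 878 in females of B6, and 0 in males and 675 in females of CAST. A call in the intron after its start was present in both B6 lists, at percentiles 42.8 in males and 54.9 in females, and in CAST females at percentile 24.7. A second call just upstream of the start was present in both B6 lists (percentiles 27.7 and 42.3) and in neither CAST list. The intronic call of CAST females had a fold enrichment of 2.41. Their other call in the window lay beyond the far end of the gene, at chr19:40109861-40110163, at percentile 7.09, and made up 303 of the 675 bases, so the lack of coverage in CAST males concerned low-ranking calls.

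Cyp2c37, a fatty acid hydroxylase (ENSMUSG00000042248.3, chr19:40066909-40086738, plus strand), was called in all lists and ranked higher in females of both strains. It had 2060 covered bases in males and 2541 in females of B6, and 1048 in males and 2107 in females of CAST. The upstream call at chr19:40064955-40066476 had a fold enrichment of 3.67 in B6 males and 5.43 in B6 females, at percentiles 63.1 and 82.6. In CAST it was 3.41 in males and 4.32 in females, at percentiles 57.1 and 71.3. An intronic call at chr19:40067652-40068013 was present in females alone in both strains, at percentiles 28.1 in B6 and 48.6 in CAST, in sequence that was unique throughout at 50 bases.

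The other 5 members were called in every list. Cyp2c39, a retinoic acid hydroxylase (ENSMUSG00000025003.6, chr19:39585352-39643019, plus strand), held the highest-ranking calls of the cluster in CAST, at chr19:39585370-39586940 just after its start. Fold enrichment there was 4.65 in males and 5.09 in females of B6, and 7.08 in males and 6.71 in females of CAST, and percentiles were 74.9, 83.9, 86.6 and 90.2. In CAST the fold was thus lower and the percentile higher in females. The CAST female call was the single call in the windows to rank above percentile 90 of its list. Cyp2c39 also had a call in its intron, at chr19:39626544-39627077, in males of both strains (percentiles 41.0 in B6 and 48.7 in CAST) and in females of neither.

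Cyp2c29, a xenobiotic-inducible epoxygenase (ENSMUSG00000003053.9, chr19:39315441-39405189, plus strand), has annotated protein-coding starts at 39315441 and 39361601. No list had a call within 1 kb of the first, and all had one at the second, at percentiles 68.5 in males and 83.0 in females of B6, and 52.8 in males and 74.4 in females of CAST. A further call, in the intron 2092 bp after that start, also ranked higher in females, at percentiles 57.2 against 77.5 in B6 and 53.0 against 75.6 in CAST. An intronic call 4196 bp before that start, at chr19:39356746-39357405, ran the other way, at percentiles 67.4 in B6 males against 38.1 in B6 females and 78.2 in CAST males against 58.4 in CAST females. Covered bases hardly differed, at 3073, 2867, 2894 and 2778 in B6 males, B6 females, CAST males and CAST females. The order of the sexes thus depended on which call of this gene was read.

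Cyp2c50, another fatty acid epoxygenase (ENSMUSG00000054827.6, chr19:40164178-40188440, plus strand), had 1723, 1872, 1587 and 1688 covered bases in the same order, all upstream of its start. Start percentiles were 76.8 and 80.3 in B6 males and females and 48.7 and 60.1 in CAST males and females. Cyp2c55, a hydroxylase also expressed in the intestine (ENSMUSG00000025002.5, chr19:39081509-39117183, plus strand), had no call in its gene body in any list. Its strongest call, upstream at chr19:39072321-39073716, was the highest-ranking call of the cluster in B6, at percentiles 83.6 in males and 87.9 in females, and stood at 83.1 and 85.2 in CAST. Its upstream calls covered 3359 bases in males and 3554 in females of B6, and 3358 in males and 2268 in females of CAST. At its start the CAST percentiles of 81.1 in males and 80.7 in females lay within 1 point of each other. Cyp2c70, which makes the muricholic acids of mouse bile (ENSMUSG00000060613.4, chr19:40227843-40261823, minus strand), was the most widely covered member, with 5740 bases in males and 6110 in females of B6, and 6879 in males and 7373 in females of CAST. Its start percentiles lay close together, from 76.4 in B6 males to 83.4 in B6 females. It had 6 calls in each B6 list, 11 in CAST males and 9 in CAST females, in its gene body and at its start, apart from a call upstream in CAST males. The B6 male call of that upstream region lay outside the window and is not among the 6.

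**Figure D2:**
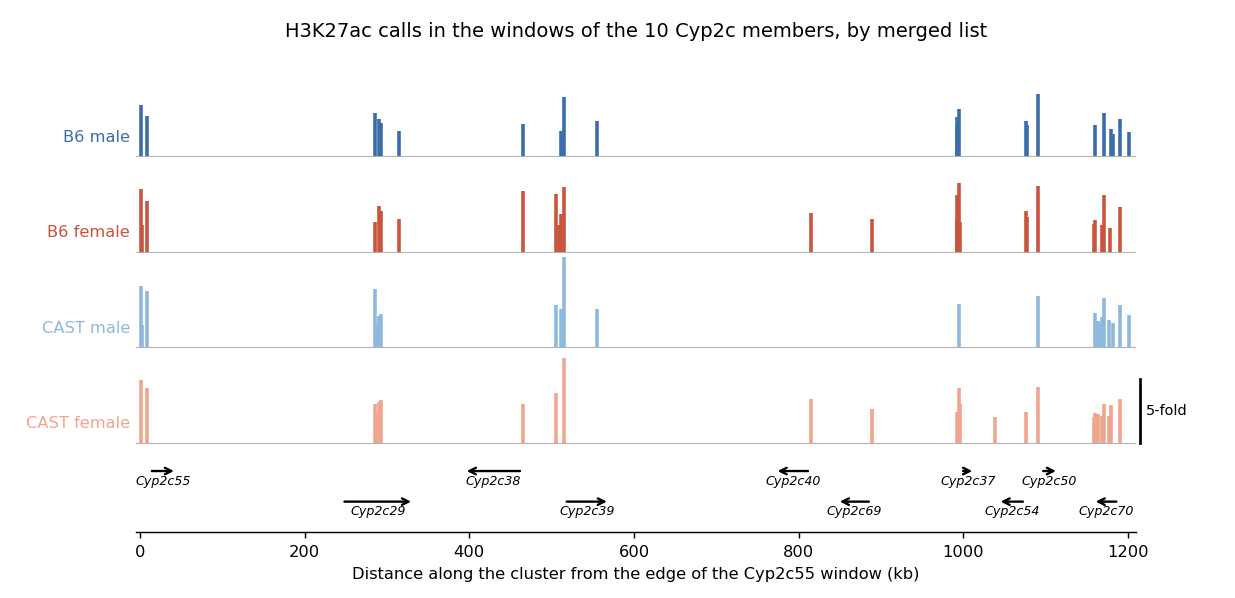
Calls in the windows of the 10 members along the cluster, in kb from the edge of the Cyp2c55 window, with 1 row per merged list, line height the fold enrichment (scale bar, 5-fold) and arrows the genes and their direction. Lines at Cyp2c40 and Cyp2c69 appear in the female rows alone, and the tallest lines stand at Cyp2c39, at 7.08-fold in CAST males and 6.71-fold in CAST females.

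Over all windows, females had slightly more covered sequence than males in both strains. The windows held 23 calls and 19082 covered bases in B6 males, 27 calls and 21388 bases in B6 females, 28 calls and 18111 bases in CAST males, and 29 calls and 20096 bases in CAST females. Covered shares of the windows were 2.91%, 3.26%, 2.76% and 3.06%, beside 2.67%, 2.54%, 2.76% and 2.47% of the autosomes and X. The female over male ratio was 0.16 on the log2 scale in B6 and 0.15 in CAST, whereas the whole lists stood at -0.07 and -0.16. The fold enrichment of the calls, averaged with their widths as weights, was 3.19 in males and 3.82 in females of B6, and 3.40 in males and 3.58 in females of CAST. With windows widened to 25 kb on each side the B6 ratio turned to -0.040, and the CAST ratio was 0.11.

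Of the 10 members, 8 reached the minimum for a ratio, all but Cyp2c40 and Cyp2c69, and among these 8 the sex difference in covered bases stayed under 1.5 times in B6 and reached it at 3 members in CAST. A member was called higher where its covered bases, after adding 500 bp, differed at least 1.5 times. In B6, 0 of the 8 members were called higher in females and 0 in males, beside 2.25% and 3.68% of 15746 genes. With 25 kb on each side Cyp2c29 was called higher in B6 males, at 5548 bases against 2867. In CAST, Cyp2c38 (1.36 on the log2 scale), Cyp2c54 (1.23) and Cyp2c37 (0.75) were higher in females and 0 members in males, beside 1.05% and 5.93% of genes. With the gene bodies alone, Cyp2c38 was the single member called in CAST females, because Cyp2c37 and Cyp2c54 then fell under the minimum. The median log2 ratio of the 8 members was 0.11 in B6 and 0.08 in CAST, and that of all genes -0.04 and -0.10. Cyp2c55 had the lowest ratio of the members in CAST, at -0.48.

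**Figure D3:**
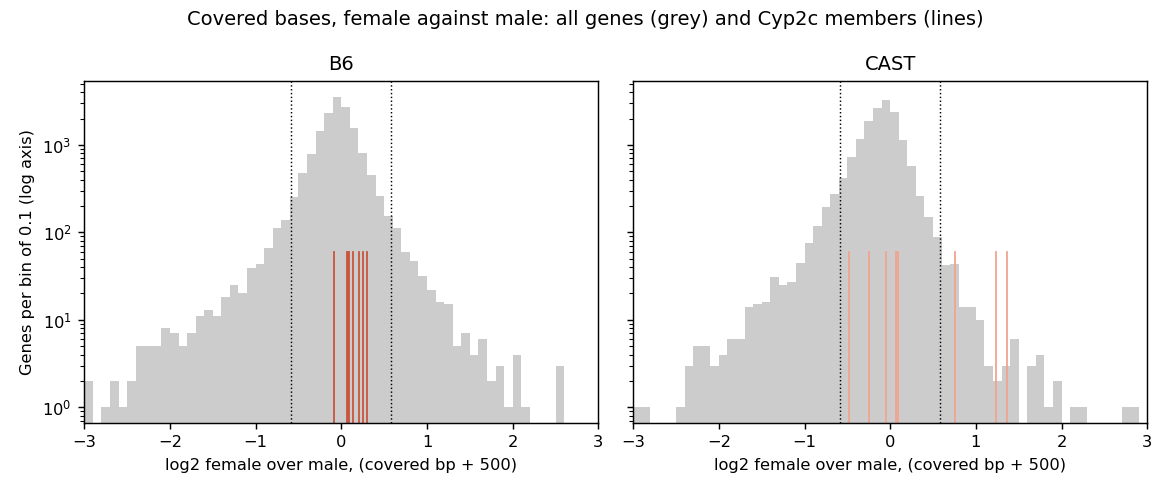
Number of genes (log axis) by log2 ratio of covered bases, female over male, for all 15746 genes in grey and for the 8 Cyp2c members with enough coverage as lines, with dotted lines at a ratio of 1.5. In B6 the members lie between -0.09 and 0.30, and in CAST 3 lines pass the right dotted line, the highest at 1.36.

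Between the strains, the same 3 members stood apart in males and none in females. Cyp2c54 (-1.33 on the log2 scale, CAST over B6), Cyp2c38 (-1.11) and Cyp2c37 (-0.73) were called higher in B6 males, and 0 members higher in CAST males, beside 3.30% and 7.52% of genes. In females 0 members were called either way, beside 7.42% of genes higher in B6 and 7.50% higher in CAST. These comparisons share the CAST male list with the sex comparison in CAST, where the same 3 members had their lowest values. The ratio over all windows was -0.08 in males and -0.09 in females, which turned to 0.058 and 0.16 with gene bodies alone. B6 and CAST reads were aligned to different genomes, and a strain difference in the mark and one in alignment cannot be told apart.

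**Figure D4:**
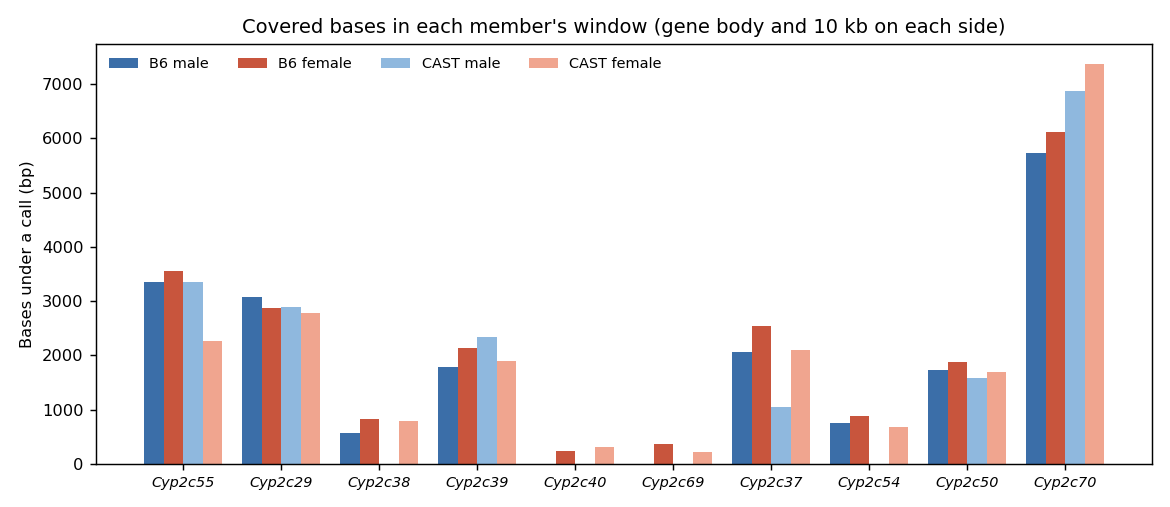
Bases under a call in the window of each member (bars from 0), in genome order, for the 4 merged lists, with no error bars because each list pools its livers. Cyp2c40 and Cyp2c69 have bars in the female lists alone, Cyp2c38 and Cyp2c54 have none in CAST males, and Cyp2c70 has the highest, up to 7373 bases.

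Touching calls of the 4 lists were merged into regions, 37 in the member windows of 119348 in all. A region was counted whole where any part of it met a window. The male-only counts thus include a region upstream of Cyp2c70 that meets the window through its CAST male call, while its B6 male call lies outside. Of the 37, 9 (24.3%, 95% Wilson confidence interval 13.4 to 40.1) were called in females alone in B6, beside 13.3% of all regions, and 4 (10.8%, 4.29 to 24.7) in males alone, beside 13.3%. In CAST, 10 (27%, 15.4 to 43.0) were called in females alone, beside 11.4%, and 6 (16.2%, 7.65 to 31.1) in males alone, beside 17.4%. The intervals cover counting error only and treat the regions as independent, which neighbouring regions of a duplicated cluster are not. Among the female-only regions, the introns of Cyp2c40 and Cyp2c69 matched each other at 94.3% of aligned positions. The female-only share was thus above its background in both strains, and the male-only share was near or below it. In B6 this rests on the window, since with 25 kb on each side male-only regions numbered 11, as many as the 11 female-only ones. With a −log10 q-value of at least 5 the B6 counts were 7 female-only and 1 male-only.

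**Figure D5:**
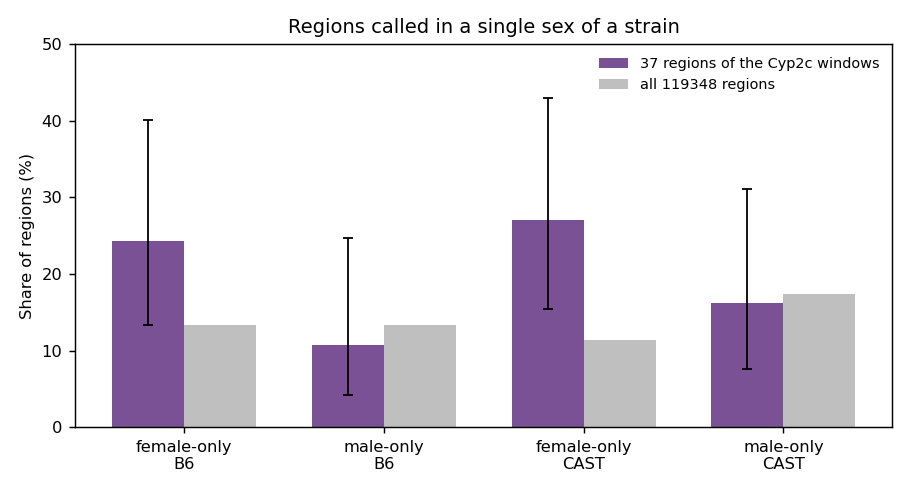
Share of regions called in females alone or males alone within a strain, for the 37 regions of the Cyp2c windows (purple, with 95% Wilson confidence intervals) and all 119348 regions (grey). Female-only shares are 24.3% in B6 and 27% in CAST for the cluster, against 13.3% and 11.4% over all regions.

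Female-only in both strains were 4 regions (10.8%, against 1.23% of all regions). They were the introns of Cyp2c40, Cyp2c69 and Cyp2c37 described above, and an intron of Cyp2c70 at chr19:40229843-40230292, with percentiles of 16.3 in B6 and 7.09 in CAST. Male-only in both strains were 3 regions (8.11%, against 2.35%). The strongest was the Cyp2c39 intron, followed by a region 9994 bp upstream of Cyp2c70 (percentiles 1.26 in B6 and 30.0 in CAST) and an intron of Cyp2c70 at chr19:40252660-40253187 (percentiles 5.40 and 12.4). The upstream region lies at the edge of the window, and its B6 male call falls outside the window. Away from the starts, a region 8612 bp upstream of Cyp2c39, at chr19:39576297-39576740, was called in B6 females (percentile 74.8) and not in B6 males, and in CAST at 55.0 in males and 66.3 in females.

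A smaller share of the cluster's regions than of all regions was called in every list or in a single list. All 4 lists called 11 regions (29.7%), beside 40.4% of all regions, and a single list called 5 (13.5%), beside 32.4%. Regions called in B6 and in neither CAST list numbered 5 (13.5%), beside 18.9%, and those in CAST and in neither B6 list 6 (16.2%), beside 23.8%. The strongest B6 region of this kind lay 2311 bp upstream of Cyp2c37, at percentiles 50.5 in males and 74.5 in females. In CAST it was an intron of Cyp2c29 at chr19:39360419-39360653, called in females at percentile 52.0.

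The remaining 5 Cyp2c genes of the annotation gave a mixed picture. Cyp2c67, which lies between Cyp2c39 and Cyp2c40, ranked higher in males at its start, at percentiles 76.8 in B6 males and 64.4 in B6 females and 66.9 and 55.6 in CAST. Cyp2c68, its neighbour, stood at 63.9 and 72.7 in B6 males and females and at 73.5 and 71.9 in CAST. Cyp2c44, an epoxygenase gene further along chromosome 19, had 63.7 and 66.5 in B6 and 81.7 and 86.8 in CAST. Cyp2c65 and Cyp2c66 had no start call in any list. By covered bases, none of the 3 that reached the minimum was called higher in either sex.

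Genes that work with or control the cluster were read on the same scale, against the shares of all genes given above, 2.25% higher in females and 3.68% in males in B6, and 1.05% and 5.93% in CAST. Of 5 partner genes, the P450 reductase gene Por, the cytochrome b5 system genes Cyb5b and Cyb5r3 and the epoxide hydrolase genes Ephx1 and Ephx2, 0 were called in either sex of either strain. Of 8 regulators, 1 was called higher in females in each strain, Cux2, a female-expressed repressor, with 9481 covered bases in males and 18930 in females of B6, and 9409 in males and 18010 in females of CAST. The other 7, Nr1i2, Nr1i3, Hnf4a, Cebpa, Foxa2, Stat5b and Bcl6, were called in neither sex. Their log2 ratios, female over male, reached from -0.31 for Cebpa to 0.05 for Stat5b in B6.

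Other P450 clusters were set beside the Cyp2c windows by their covered bases. The 5 Cyp2b genes had 4961 covered bases in males and 17603 in females of B6, and 2497 in males and 11270 in females of CAST, of which Cyp2b9 and Cyp2b13 had 0 in both male lists. The 9 Cyp3a genes had 8012, 9047, 10386 and 12847 bases in the same order, and the 9 Cyp2d genes 35790, 30434, 34864 and 29687. Summed covered bases were higher in females at Cyp2b, Cyp3a and Cyp2c and higher in males at Cyp2d, in both strains, with the widest gap at Cyp2b. At Cyp2d most of the gap was at Cyp2d9, with 6651 bases in males and 1711 in females of B6, and 6222 in males and 3035 in females of CAST, 7 of the 9 genes were called in neither sex, and Cyp2d12 was called higher in females. At Cyp3a, 5 genes reached the minimum for a ratio, with a median log2 ratio, female over male, of -0.03 in B6 and 0.04 in CAST. Of these 5, 2 were called higher in females in each strain and 1, Cyp3a11, higher in CAST males, beside the shares of all genes given above. These differences between clusters were not tested.

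The 5 motifs were searched on both strands in the 250 bases before the start of the 10 members, at the start with the highest-ranking call, and in 45773 promoters of the same length. The TATA box letters TATAAA occurred in 5 of the 10 member promoters, beside 10.5% of all promoters, and in Cyp2c38 they stood 31 to 26 bases before the start. The HNF4 letters CAAAGTCCA occurred in 3, Cyp2c40, Cyp2c69 and Cyp2c70, beside 0.380%. They stood 45 to 37 bases before the start at 39887304 in Cyp2c40, and 75 to 67 bases before the start in Cyp2c69. The C/EBP letters TTGCNNAA occurred in 3, Cyp2c37, Cyp2c54 and Cyp2c69, beside 8.52%, and the FOXA letters TGTTTAC in 2, Cyp2c38 and Cyp2c39, beside 2.65%. The STAT5 letters TTCNNNGAA occurred in 0, beside 6.52%. No match of one motif overlapped another in the promoters printed. The members arose by duplication, so shared letters are not separate observations.

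In the middle 300 bases of the 37 regions, the STAT5 letters occurred in 4 (10.8%), at Cyp2c39 (2), Cyp2c37 and Cyp2c70, beside 9.27% of all regions, the TATA box letters in 8 (21.6%), beside 14.4%, and the C/EBP letters in 4 (10.8%), beside 12.9%. The HNF4 and FOXA letters occurred in 0, beside 0.874% and 5.0%. The repeated intronic stretches of Cyp2c40 and Cyp2c69 held none of the 5 motifs, and the female-only intron of Cyp2c37 held the TATA box and C/EBP letters.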

How the data were processed

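H3K27ac ChIP-seq libraries of 20 livers and 4 inputs were available as 4 deposited peak lists, and each list pools 5 livers. By the study's methods, the authors aligned B6 reads to mm9 and CAST reads to a CAST version of mm9 with Bowtie2, kept uniquely mapped reads, called peaks with MACS2 against input, removed blacklisted regions and regions of PCR duplicates alone, and converted CAST coordinates to mm9. The authors deposited for each peak a score, a fold enrichment (a ratio over background), the −log10 p-value and the −log10 q-value. The score equalled 10 times the −log10 q-value within 1 unit for 100% of peaks. No depth is given in the lists, and none was recovered.

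Covered bases were counted over GENCODE vM1 genes on NCBIM37 (mm9), coordinates 1-based, with Python 3.11.15, numpy 2.4.6 and pandas 2.3.3. Ratios used 500 bp added to both sides, a minimum mean of 500 covered bp over the 4 lists and a call at 1.5 times. Regions merged calls that overlapped by at least 1 bp. Percentiles ranked peaks by score and then p-value. Uniqueness was the exact count of each 50-base or 200-base stretch on both strands of the genome. Promoters and region middles were read from that genome and aligned with Biopython 1.88, end gaps free. Each list is 1 observation per group, so no test was run and no paired analysis was possible. The counting steps were tested on simulated data. All members, the other Cyp2c genes, fixed lists of partners and regulators (a listed regulator, left out of all counts, is not reported here), and up to 3 regions per call pattern were named. The members and lists were chosen with earlier results of these data known, and the order of the sexes at the starts was added after the data were seen. Alternatives were other flanks, a stricter q-value, lists of equal length, other overlap rules, unique bases alone, no pseudocount and a ratio of 2. Partner gene Cyb5a was not matched in the annotation and not analysed here.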

Additional observations from a re-analysis of the deposited data

Results flagged for a closer look

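In 2 regions the strains were called in opposite sexes, and this difference between the strains was not tested. Of all regions, 1.66% were called in B6 females alone and CAST males alone and 0.925% the other way round, beside 1 of the 37 of each kind. The first lies 7153 bp upstream of the Cyp2c55 start, at chr19:39074021-39074356, and was called in B6 females at percentile 37.6 and in CAST males at percentile 4.71, with no call in the other sex of either strain. The second lies in an intron of Cyp2c70, at chr19:40250200-40250913, and was called in B6 males at percentile 21.6 and in CAST females at percentile 51.0. All 50-base stretches starting in the Cyp2c70 region were unique in mm9, and 96.7% of those in the Cyp2c55 region.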

How the results depend on the processing

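For 14 results, 80 alternative values were computed, of which 70 kept the direction with a ratio or count within 1.5 times of that given, ratios being compared before taking logs. Among these, the log2 ratio of covered bases, female over male, in CAST moved from 0.15 to 0.29 with peaks of a −log10 q-value of at least 5 and to 0.26 with gene bodies alone, and that of CAST over B6 in males from -0.08 to -0.21 with the stricter peaks and to -0.14 with 25 kb. The 70 include counts that stayed at 0, which have no direction. The log2 ratios of covered bases were small, so nearly any value of the same sign lay within 1.5 times, and the number kept says little about them. For windows of 25 kb on each side, the log2 ratio of covered bases, female over male, turned to -0.040 in B6, and that of CAST over B6 in females to 0.0088. Male-only regions in B6 then numbered 11 in place of 4, and 1 member, Cyp2c29, was called higher in B6 males in place of 0. With gene bodies alone, the log2 ratio of CAST over B6 turned to 0.058 in males and 0.16 in females, 1 member in place of 3 was called higher in CAST females, and male-only regions in CAST numbered 3 in place of 6. With peaks of a −log10 q-value of at least 5, male-only regions in B6 numbered 1. Within 500 bp of the start, 5 members in place of 9 ranked higher in CAST females, a setting chosen after seeing the data. The cause of these shifts was not tested, apart from the smaller or larger window itself. With fold enrichment in place of percentile, also chosen after seeing the data, 8 members had higher values at the start in CAST females and 10 in B6 females. No paired analysis was possible because each group is a single pooled list.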
